A study of Mus musculus with 14 samples.

Results

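The wild type (WT) newborn mouse brain was described from RNA-SEQ of 7 WT brains at postnatal day 2 (P2), 7 of the 14 brains of a study that also sequenced 7 Capn15 KO brains, which are not analysed here. The brains were chosen by their label alone, and all 17927 genes of the deposited counts were taken. WT1 (male) came from litter A, WT2 and WT3 (males) from litter B, WT4 (female) from litter C, WT5 (female) from litter D, WT6 (male) from litter E and WT7 (male) from litter F, as the column names of the counts gave litter and sex. The pups belonged to a Capn15 line made on C57BL/6J mice, were untreated, and gave whole, snap-frozen brains. Each brain is 1 pup, so that the spread between brains holds both biological and technical parts.

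At this age the mouse brain is still being built. Most neurons have been born and are extending axons, radial glia and young astrocytes are dividing, granule cells of the cerebellum are still forming, and oligodendrocyte precursors have only begun to make myelin. Whole-brain RNA mixes all of these cells with vessels, meninges, choroid plexus and blood, so that a lower level of a marker can mean fewer cells of a type or less RNA per cell, and the 2 cannot be told apart here.

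Between 39937477 and 57422382 reads were counted on genes per brain. Levels are given as CPM, read counts scaled to the size of the library with TMM factors, which is a share of the reads and grows with the length of a gene. Levels of different genes are ranked as CPM per kilobase of exon unless CPM is stated, as for gene classes and their leaders. Every gene had a CPM over 0.1 in at least 8 of the 14 libraries, so that genes silent in the brain had already been removed from the table. Of the 17927 genes, 17918 had a count in all 7 brains. The 9 others include genes of the Y chromosome, which had 0 counts in both females. Counting error alone gave a median coefficient of variation of 20% for genes between 0.1 and 1 CPM, 8.01% between 1 and 10 CPM and 1.15% between 100 and 1000 CPM.

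A small part of the genes carried most of the counts. Only 52 genes reached a mean of 1000 CPM, and they took 12.5% ± 0.423 (SD, n = 7) of the counts. Another 2434 genes lay between 100 and 1000 CPM with 53.4% ± 0.432 of the counts, 8078 between 10 and 100 CPM with 32.0% ± 0.0490, and 4648 between 1 and 10 CPM with 1.93% ± 0.0309. The remaining 2715 genes, under 1 CPM, held 0.161% ± 0.0145. By the mean of the 7 brains, 1247 genes were needed to reach 50% of the counts and 6608 to reach 90%. In single brains the first number lay between 1229 in WT7 and 1249 in WT3 and WT5. The gene with the most counts on average, mt-Rnr2, held 1.43% ± 0.0919, although Rn7sk had more in WT2, WT3, WT4 and WT6, and the first 10 genes held 6.28% ± 0.463.

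The cytoskeleton of growing neurons led the nuclear protein coding genes. Tuba1a, an alpha tubulin of migrating and growing neurons, had the highest level per length, 2979 ± 93.2 CPM per kilobase (SD, n = 7). Its CPM was 5308 in WT1, 5293 in WT2, 5208 in WT3, 5573 in WT4, 5319 in WT5, 5646 in WT6 and 5255 in WT7, a range of 1.08-fold. Eef1a1, the factor that brings aminoacyl-tRNA to the ribosome, followed at 2215 ± 151 CPM per kilobase, and Actb, the non-muscle beta actin, at 1813 ± 30.3. The sequences around the starts of Tuba1a (GRCm38, chromosome 15, 98949837 to 98953703, minus strand) and Eef1a1 (chromosome 9, 78478449 to 78489151, minus strand) are printed as those of the 2 leading genes. They run from 250 bases before to 50 bases after the start in RefSeq on GRCm38.p6, on the strand of the gene, with matches to CCAAT and GGGCGG on either strand in capitals. For Eef1a1 the whole window lies inside the gene span given above, far from its upstream end.

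Tuba1a, chr15:98953452-98953751, minus strand: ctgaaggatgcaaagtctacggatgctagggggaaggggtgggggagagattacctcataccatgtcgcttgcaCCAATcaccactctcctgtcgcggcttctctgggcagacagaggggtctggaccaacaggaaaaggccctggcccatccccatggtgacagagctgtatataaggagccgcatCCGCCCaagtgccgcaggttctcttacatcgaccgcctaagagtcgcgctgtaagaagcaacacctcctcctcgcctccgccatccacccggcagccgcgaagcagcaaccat
Eef1a1, chr9:78481675-78481974, minus strand: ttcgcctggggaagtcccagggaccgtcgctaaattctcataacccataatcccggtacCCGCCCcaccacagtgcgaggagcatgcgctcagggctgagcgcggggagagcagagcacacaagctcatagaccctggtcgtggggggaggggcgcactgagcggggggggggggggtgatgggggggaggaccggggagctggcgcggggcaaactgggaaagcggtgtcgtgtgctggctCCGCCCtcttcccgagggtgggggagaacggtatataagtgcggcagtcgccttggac

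Of the 20 leading genes, 12 had an entry in this promoter table. GGGCGG was found in 9 of the 12 and in 35.7% of all 32851 promoters, CCAAT in 6 of the 12 and in 37.4%, and TATAAA in 3 of the 12 and in 13.6%. The median number of CG pairs in the 300-base window was 21 for these 12 and 7 for all promoters. These are matches of letters only.

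Beta tubulins took the next places. Tubb3, the neuronal beta tubulin used as a marker of young neurons, stood at 1357 ± 25.6 CPM per kilobase, Tubb2b at 1279, Tubb5 at 1005 and Tubb2a at 894.3. The 17 tubulin genes together summed to between 16161 CPM and 17061 CPM per brain. Calm2 (875.8 CPM per kilobase) and Calm3 (619.1), which both encode calmodulin, Gap43 (560.7), a growth cone protein, Stmn1 (506.2), a regulator of microtubule turnover, Tmsb4x (636.4), which binds actin monomers, and Marcksl1 (552.2), a membrane protein that binds actin and calmodulin, were also among the 20. So were Rplp1 (809.9), a protein of the large ribosomal subunit, Eef2 (653.3), the elongation factor of ribosome translocation, Hsp90ab1 (542.5), a chaperone, and Ftl1 (552.6), the light chain of ferritin. Fabp7 (522.6), the fatty acid binding protein of radial glia, and Ttr (713.8), the thyroid hormone carrier made by choroid plexus, were the genes of glia and choroid plexus on the list. Nnat, an imprinted membrane proteolipid of newborn neurons, stood at 800.5 ± 187 CPM per kilobase.

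The spread of these 20 genes was unequal. Tmsb4x had a coefficient of variation of 1.04% between brains, Actb 1.67% and Tubb3 1.89%. Nnat had the largest, 23.4%. Its CPM was 1139 in WT1, 2166 in WT2, 1575 in WT3, 1421 in WT4, 1339 in WT5, 1413 in WT6 and 1196 in WT7. The value in WT2 stood above all the others, and without WT2 the coefficient of variation of Nnat was 11.9%.

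**Figure D1:**
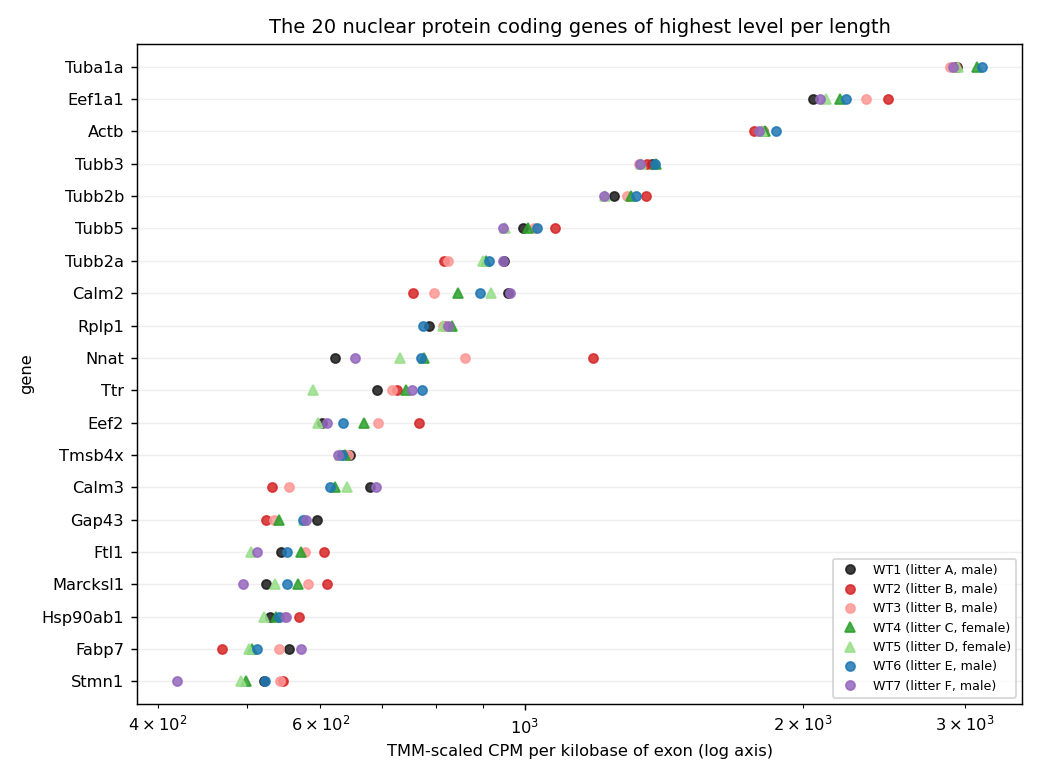
Level per length of the 20 leading nuclear protein coding genes in each of the 7 WT brains, in TMM-scaled CPM per kilobase of exon on a log axis; each point is 1 brain, circles are males and triangles are females. Tuba1a leads at a mean of 2979, Tmsb4x shows the narrowest spread and Nnat the widest, with WT2 at the right.

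Several short RNAs stood above or beside the leading mRNA per length. Rn7sk, the 7SK RNA that holds the elongation factor P-TEFb inactive, reached 42072 CPM per kilobase, Rpph1, the RNA of RNase P, 9015, Bc1, a dendritic RNA of neurons, 3100, and Rny3, a Y RNA, 2908, the last of these just under Tuba1a. The CPM of Rn7sk lay between 12319 in WT1 and 16035 in WT2. RNAs this short give few usable fragments, so that their levels depend on the library preparation as well as on their amount. Of the other structural RNAs, Rmrp, the RNA of RNase MRP, was lowest at 85 CPM per kilobase, and Rn7s2, a copy of the signal recognition particle RNA, varied most, from 234 CPM in WT6 to 430 CPM in WT3. Rn7s2 has a near-identical copy, Rn7s1, and the counting could divide reads between the copies.

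Protein coding genes made up 82.9% of the genes (14863) and 94.6% ± 0.532 (SD, n = 7) of the counts. The share lay between 93.9% and 95.3% in single brains. Genes without a biotype in the deposited table, 138 in number, held 2.08% ± 0.468, Mt_rRNA genes (2) 1.56% ± 0.11, lncRNA genes (1345) 1.05% ± 0.0722, and the ribozyme Rpph1 0.288% ± 0.0361. The 726 TEC genes, a provisional class of gene models that still await experimental proof, held 0.0807% ± 0.0173. Smaller shares belonged to 492 processed pseudogenes (0.0633%), 167 transcribed processed pseudogenes (0.0446%), 66 transcribed unprocessed pseudogenes (0.0378%), 58 snoRNA genes (0.0586%) and 15 miRNA genes (0.0140%). The 138 genes without a biotype were mostly known by another annotation. GENCODE M21 gave 28 of them as lincRNA, 22 as protein coding, 21 as snRNA and 15 as misc_RNA, and most of their counts lay on Rn7sk and on the ribosomal RNA gene CT010467.1. Counting those 22 as protein coding adds only 0.0614% of the counts.

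Malat1, the nuclear RNA of splicing speckles, led the lncRNA genes by CPM. Its CPM was 1618 in WT1, 2618 in WT2, 2108 in WT3, 2326 in WT4, 2083 in WT5, 1567 in WT6 and 1817 in WT7. WT2 was highest. Rian, a maternally expressed RNA of the imprinted Dlk1-Dio3 region, reached a mean of 1059 CPM with a coefficient of variation of 4.57%, and 2900097C17Rik 586.9 CPM. Per length, Malat1 (289.2 CPM per kilobase) stood far above Rian (58.1) and under Bc1 (3100). Neat1, the RNA that builds paraspeckles, was the lowest of the 16 lncRNAs listed, at 0.295 CPM per kilobase. Kcnq1ot1, the imprinted antisense RNA of Kcnq1, was the most variable of them, from 21.4 CPM in WT7 to 64.5 CPM in WT3. In whole brains the median lncRNA stood at 1.04 CPM and the median protein coding gene at 25.9 CPM.

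The leading genes of the small classes were mostly weak. Among TEC genes these were Gm44509 (23.3 CPM), Gm49338 (19.1) and Particl (18.9). Among processed pseudogenes they were Gm10736 (22.0 CPM), Gm7964 (21.3) and Gm13456 (20.4), and a processed pseudogene can draw reads from its parent gene. Gm5124, Zrsr1, Ap2m1-ps, 4632415L05Rik, Gm5113 and Tmem181b-ps led the other pseudogene classes, between 25.5 and 41.7 CPM. Among snoRNAs the leaders were Scarna10 (202 CPM), Snora73a (85.3) and Snora73b (60.6). Scarna10 is named for Cajal bodies, where RNAs of its kind guide the modification of spliceosomal RNAs. Gm22513, an snRNA in GENCODE M21, followed Rn7sk and CT010467.1 among the genes without a biotype, at 300.1 CPM.

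Mature miRNAs are too short for these libraries. Whether the reads on the 15 miRNA genes come from precursors, overlapping transcripts or other RNA was not tested. Only 3 reached 1 CPM. They are printed with the seed, bases 2 to 8, in capitals, from RefSeq on GRCm38.p6, where 12 of the 15 had an entry. No 2 of the 3 share a seed.

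mmu-miR-6236, chr9:110281353-110281371, plus strand: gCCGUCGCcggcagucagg
mmu-miR-703, chr5:98475616-98475636, minus strand: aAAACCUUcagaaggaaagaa
mmu-miR-1983, chr13:21896930-21896950, minus strand: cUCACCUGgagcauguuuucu

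Mir6236 stood at a mean of 127.7 CPM, Mir703 at 4.87 CPM and Mir1983 at 1.29 CPM. Mir6236 was highest in WT7 (364 CPM) and WT4 (207 CPM), the same brains as the ribosomal RNA gene CT010467.1, so that its level may not be that of a miRNA gene.

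Mitochondrially encoded genes, 20 in the table, took 2.22% ± 0.148 of the counts, from 1.96% in WT6 to 2.42% in WT7. The 2 ribosomal RNAs made up most of it, with mt-Rnr2 at 9031 CPM per kilobase and mt-Rnr1 at 1411. The mitochondrial genome is transcribed as long polycistronic RNAs that are processed at the tRNAs, and its 13 proteins, of which mt-Nd4l was not analysed here, are subunits of the respiratory chain and the ATP synthase. The levels of the 12 that were analysed differed by more than 1000-fold on the same scale. mt-Co1, subunit 1 of cytochrome c oxidase, stood at 2883 CPM per kilobase, mt-Nd1 at 1036, mt-Cytb at 641, mt-Nd2 at 126, mt-Nd4 at 75, mt-Nd5 at 54.1 and mt-Nd6 at 29.8. The 5 genes that follow mt-Co1, between 7013 and 9806 on chromosome M, were lowest, with mt-Co2 at 6.25, mt-Atp8 at 1.91, mt-Atp6 at 1.84, mt-Co3 at 10.1 and mt-Nd3 at 2.27 CPM per kilobase.

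The break at mt-Co2 was present in every brain. The CPM of mt-Co1 lay between 3605 in WT6 and 4745 in WT1, and that of mt-Co2 between 3.03 in WT6 and 5.17 in WT4, so that no brain came near closing the gap. The nuclear genome holds copies of mitochondrial sequence, and the counts of these genes are uncertain where reads match both. Of the 93 nuclear genes of the respiratory chain the median level was 45.7 CPM per kilobase, and 80 reached 10 CPM.

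**Figure D2:**
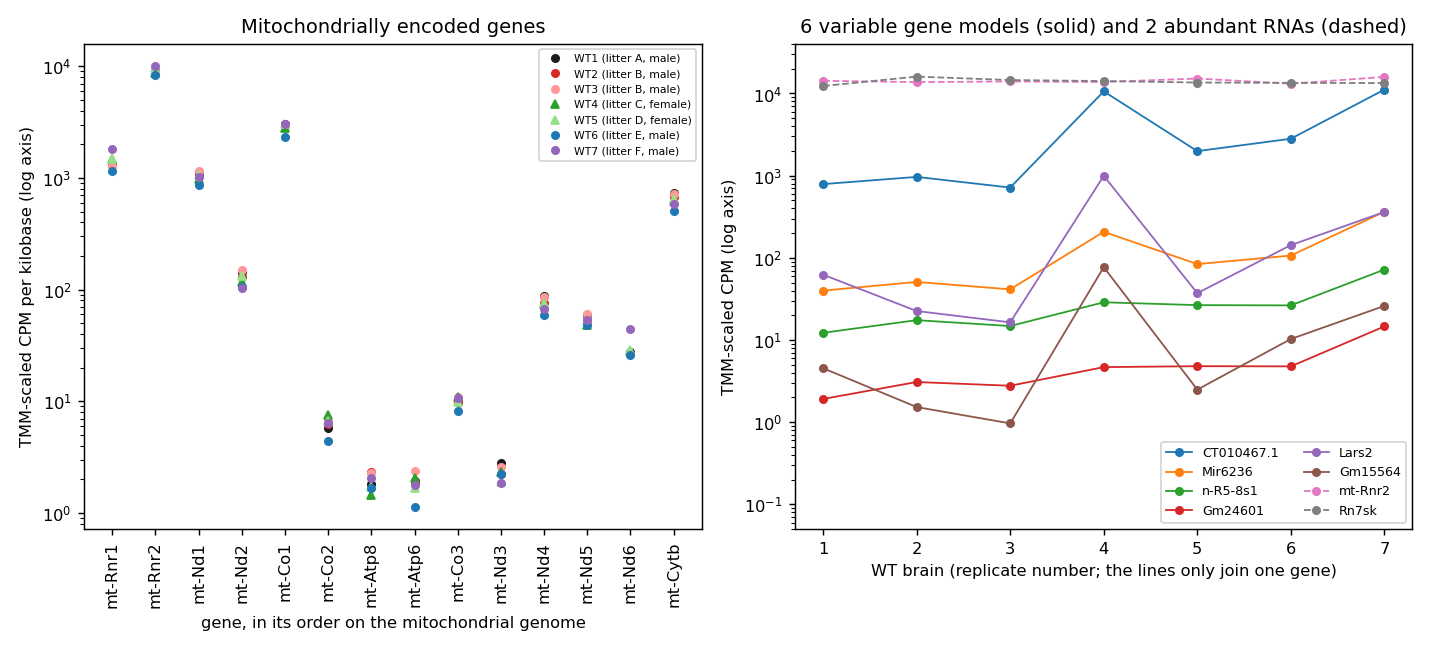
Left, level per length (CPM per kilobase, log axis) of the mitochondrially encoded rRNA and protein coding genes in their genome order, 1 point a brain; mt-Co2 to mt-Nd3 lie below the other protein coding genes in all 7 brains and mt-Co1 above them. Right, CPM (log axis) by brain of 6 variable gene models (solid lines) and of mt-Rnr2 and Rn7sk (dashed); CT010467.1, Lars2 and Gm15564 stand high in WT4 and WT7.

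Most genes differed between brains by more than counting error. A chi-square test of the 7 counts of each gene against equal shares of the scaled library totals called 13412 of 17927 genes (Benjamini-Hochberg adjusted p under 0.05), which is 74.8%. The share rose with the level, since counting error shrinks: 45.1% of genes between 0.1 and 1 CPM, 60.2% between 1 and 10 CPM, 85.9% between 10 and 100 CPM and 98.3% between 100 and 1000 CPM were called. The size of the spread is given by the biological coefficient of variation (BCV) of edgeR, an estimate of the spread beyond counting error. It is drawn toward a trend common to all genes, so that for steady genes it can exceed the plain coefficient of variation. Over the 15212 genes with a mean of 1 CPM or more, the median BCV was 8.62%, with 5% of genes under 5.80% and 5% over 19.3%. For the plain coefficient of variation these values were 8.13%, 2.88% and 23.4%. A BCV over 20% was found for 654 genes (4.30%) and one over 50% for 22 genes. The highest brain exceeded the lowest by more than 1.5-fold in 2992 of these genes (19.7%), by more than 2-fold in 692 (4.55%) and by more than 4-fold in 88 (0.578%).

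Among genes between 1 and 10 CPM, the median BCV was 12.1% for 3521 protein coding genes, 13.6% for 575 lncRNA genes, 14.2% for 170 processed pseudogenes and 20.7% for 184 TEC genes. Counting error was not alike in these classes, with a median coefficient of variation of 7.30%, 9.82%, 11.6% and 11.7% in the same order. The TEC genes moved together. Their summed CPM was 860 in WT1, 959 in WT2, 1081 in WT3, 697 in WT4, 781 in WT5, 662 in WT6 and 607 in WT7. Of the 191 TEC genes with a mean of 1 CPM or more, WT3 was the highest brain for 88 and WT7 the lowest for 90. Over all genes with a mean of 1 CPM or more, WT3 was the highest for 10.5% and WT7 the lowest for 17.5%.

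The steadiest genes had many different roles. B4galt2, a galactosyltransferase of the Golgi, had the smallest BCV among genes of 10 CPM or more, 5.15%, and its CPM lay between 144.7 in WT7 and 147.8 in WT6. Scg5 (5.16%), a chaperone of secretory granules, Psma1 (5.19%), a proteasome subunit, Puf60 (5.20%), a splicing factor, Tpp2 (5.20%), a peptidase, Dctn4 (5.21%), a dynactin subunit, Lrrc59 (5.21%), a protein of the endoplasmic reticulum, Cfl2 (5.22%), a cofilin, Maea (5.23%), a ubiquitin ligase subunit, and Elp3 (5.23%), the catalytic subunit of Elongator, completed the 10. Because BCV estimates are drawn toward their common trend, their order within this group is not distinguishable. The plain coefficient of variation of B4galt2 was 0.885%, under its counting error of 1.23%, so that its BCV is set largely by that trend. The 47 proteasome genes as a family summed to a mean of 4505 CPM with a coefficient of variation of 1.36%.

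**Figure D3:**
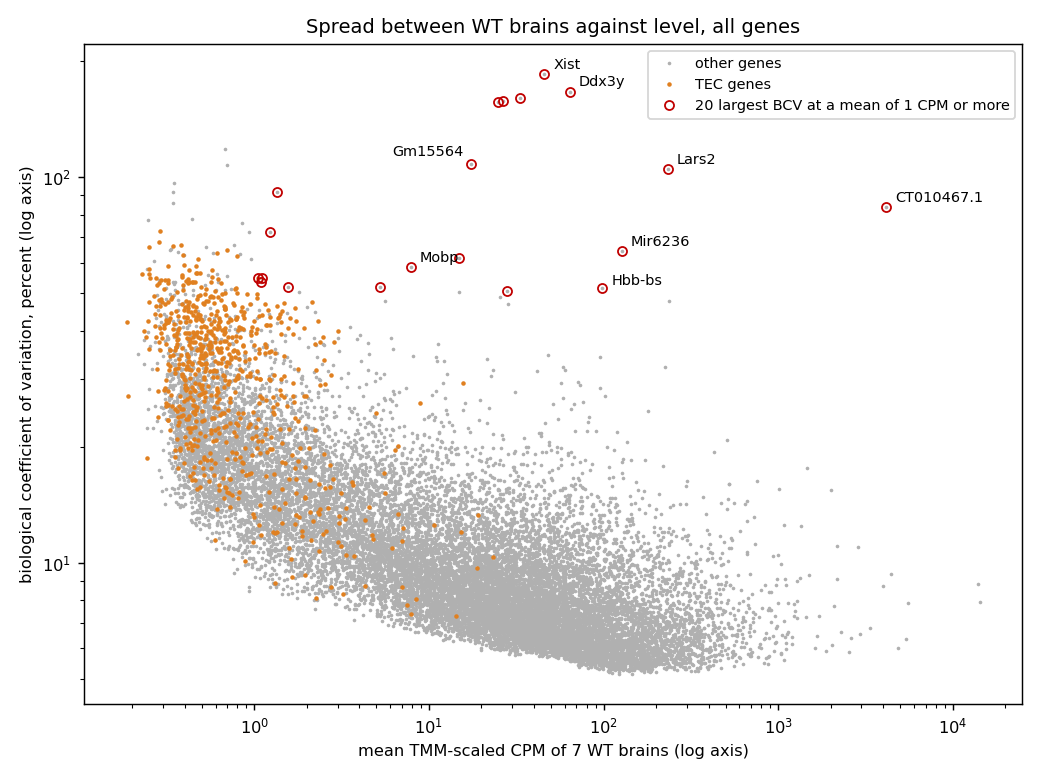
BCV in percent against mean CPM of the 7 WT brains for all 17927 genes, both on log axes; orange points are TEC genes and red rings the 20 genes of largest BCV at a mean of 1 CPM or more. Xist, Ddx3y, Lars2, Gm15564 and CT010467.1 stand far above the genes of their level.

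Of the 20 most variable genes, 5 were those that separate the sexes: Xist, Ddx3y, Eif2s3y, Kdm5d and Uty. The next group moved together across brains without regard to sex. CT010467.1, annotated as ribosomal RNA (GRCm38, chromosome 17, 39846353 to 39848827, minus strand), had a CPM of 789 in WT1, 965 in WT2, 716 in WT3, 10601 in WT4, 1986 in WT5, 2812 in WT6 and 11135 in WT7. WT4 and WT7 stood far above the other brains. Lars2, the mitochondrial leucyl-tRNA synthetase (chromosome 9, 123366927 to 123462666, plus strand), had a CPM of 62.3, 22.5, 16.4, 994.6, 37.1, 142.7 and 361.1 in WT1 to WT7, and the lncRNA gene Gm15564 (chromosome 16, 35966752 to 35983230, minus strand) 4.53, 1.53, 0.966, 76.9, 2.49, 10.3 and 26.0. The 2 genes had their highest values in WT4, then WT7, then WT6, and their lowest in WT3. Mir6236, which lay between 39.9 CPM in WT1 and 364 CPM in WT7, and Gm24601, between 1.91 CPM in WT1 and 14.6 CPM in WT7, were also highest in WT7. Without WT7 the coefficient of variation of Gm24601 was 33.9% in place of 82.0%, and that of Mir6236 72.5% in place of 93.6%. n-R5-8s1, a 5.8S ribosomal RNA, was named after its values were seen. It lay between 12.2 CPM in WT1 and 71.9 CPM in WT7, with a coefficient of variation of 71.7% that was 33.5% without WT7.

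Some of these gene models share sequence, and a read that lies within a shared run cannot be assigned to one of them. A GENCODE M21 transcript of Lars2 and one of Gm15564 have an identical run of 52 bases, which starts at base 3278 of 3894 in Lars2 and at base 179 of 402 in Gm15564, and whose first 30 bases are printed here. Gm15564 also overlaps other genes on the opposite strand, so that its reads are uncertain for a further reason. Gm23935 (chromosome 16) and Gm24270 (chromosome 9), given as miRNA in GENCODE M21, are the same 57 bases, and Gm24187 (chromosome 13) holds 46 of these bases in an unbroken run.

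Lars2 and Gm15564, first 30 bases of the shared run: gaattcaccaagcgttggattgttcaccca
Gm23935 and Gm24270, all 57 bases: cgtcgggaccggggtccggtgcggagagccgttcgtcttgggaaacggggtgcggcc

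Gm23935 had a mean of 226 CPM, Gm24187 95.5 CPM and Gm24270 51.4 CPM, and all were highest in WT7, at 419, 172 and 81.4 CPM. A single value for the group is therefore safer than one for each gene. Ribosomal RNA was removed from all libraries before sequencing, and how much of it remained in each was not tested. The mitochondrial mt-Rnr2 had a far narrower range, from 13139.9 CPM in WT6 to 15901 CPM in WT7.

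Blood came next. Slc4a1, the anion exchanger of red blood cells, Hbb-bt, Hbb-bs and Hba-a1, the adult globins, were among the 20 most variable genes. The CPM of Hbb-bs was 107 in WT1, 202 in WT2, 115 in WT3, 115 in WT4, 18.4 in WT5, 80.9 in WT6 and 50.9 in WT7. WT5 was lowest and WT2 highest. All 7 analysed genes of the red blood cell list varied beyond counting error, against 74.8% of all genes. Their summed CPM was lowest at 31.3 in WT5, had a median of 182 and was highest at 326 in WT2. Slc4a1 varied most, with a coefficient of variation of 80.6% and values from 0.153 CPM in WT5 to 2.55 CPM in WT2.

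The rest of the 20 included Mobp, a myelin protein described with the oligodendrocyte genes, and Hoxb7, described with the hindbrain. Capn11, a calpain of the testis, lay between 0.122 CPM in WT7 and 4.01 CPM in WT4. WT1, WT2 and WT7 were under 0.2 CPM and the other brains over 1 CPM. Tph1, the tryptophan hydroxylase of the pineal gland and gut, lay between 0.525 CPM in WT7 and 3.80 CPM in WT6. Gm44831, a predicted gene, was highest in WT3 at 2.55 CPM, and Gm11738 highest in WT2 at 2.45 CPM.

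The neuron list had the highest summed CPM of the cell class lists, and this sum was steady. The sample labels name the cell type as neurons, but markers of glia, vessels, meninges, choroid plexus and blood were all measured, and the libraries are called whole brain here. The 12 neuron genes summed to between 8950 CPM in WT4 and 9528 CPM in WT1, with a median of 9144 and a coefficient of variation of 2.22%. Tubb3 and Gap43 were the highest per length. Rbfox3, the NeuN protein of mature neurons, was the lowest at 12.8 CPM per kilobase. Dcx, a microtubule protein of migrating neurons, varied most, from 557 CPM in WT7 to 885 CPM in WT2. All 12 varied beyond counting error, against 74.8% of all genes, and genes at their level nearly all do.

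Transmitter classes were nearly as steady in sum. The 10 glutamatergic genes summed to between 830 and 890 CPM. Neurod6, a transcription factor of cortical projection neurons, led at 73.9 CPM per kilobase, followed by Slc17a6 (41.5), the VGLUT2 transporter, while Slc17a8 (1.97), VGLUT3, was lowest. Slc17a7, the VGLUT1 transporter that is acquired as cortical synapses mature, varied most, with a CPM of 94.2, 34.8, 48.1, 73.6, 75.4, 64.4 and 85.2 in WT1 to WT7. WT2 and WT3 of litter B held the 2 lowest values. They also held the 2 lowest of Slc17a6, Slc17a8 and Neurod1, but the 2 highest of Neurod2 and Tbr1. The 12 GABAergic and glycinergic genes summed to between 898 and 977 CPM. The peptides Sst (99.8 CPM per kilobase) and Npy (88.9) led them, and Dlx2, a transcription factor of interneuron progenitors, was lowest (1.97) and varied most, from 4.11 CPM in WT7 to 7.86 CPM in WT2. Monoaminergic and cholinergic genes were far lower and summed to between 92.2 and 106 CPM. Slc18a2, the vesicular monoamine transporter, led at 4.42 CPM per kilobase, followed by Slc6a3 (3.24), the dopamine transporter, and Chat, which makes acetylcholine, was lowest at 0.278 and most variable.

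Radial glia and astrocyte genes, 12 in all, summed to between 2009 CPM in WT2 and 2639 CPM in WT7, with a median of 2350. Fabp7 led at 522.6 CPM per kilobase and Aldoc, an aldolase of astrocytes, followed at 64.5. Pax6, a transcription factor of progenitors, was lowest at 2.64. Gfap, the intermediate filament of maturing astrocytes, varied most. Its CPM was 104 in WT1, 33.9 in WT2, 48.0 in WT3, 81.5 in WT4, 71.6 in WT5, 78.6 in WT6 and 93.8 in WT7. WT2 and WT3 were the lowest for Gfap, Aqp4, Aldoc, Slc1a2 and Slc1a3, but the highest for Nes, Vim and Pax6 of the same list. The 10 genes of dividing cells summed to between 316 CPM in WT2 and 449 CPM in WT1. Pcna (29.4 CPM per kilobase), the sliding clamp of DNA replication, and Top2a (10.4), a topoisomerase of dividing cells, led, and Birc5 (2.0), survivin, was lowest. Mki67, the Ki-67 protein, varied most, from 54.0 CPM in WT2 to 92.4 CPM in WT1.

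The oligodendrocyte line showed the widest spread in summed CPM of the cell lists other than blood. The 7 precursor genes summed to 471 CPM in WT1, 294 in WT2, 329 in WT3, 377 in WT4, 400 in WT5, 389 in WT6 and 457 in WT7. Olig1 (29.5 CPM per kilobase), a transcription factor of the line, and Pdgfra (17.2), the growth factor receptor of precursors, led. Cspg4, the NG2 proteoglycan, was lowest at 2.86. Gpr17, a receptor of precursors about to differentiate, varied most, from 28.0 CPM in WT2 to 93.0 CPM in WT1. The 7 analysed myelin genes summed to 365 CPM in WT1, 156 in WT2, 176 in WT3, 269 in WT4, 268 in WT5, 246 in WT6 and 362 in WT7. Both brains of litter B lay below all others, and without them the coefficient of variation of the sum was 18.8% in place of 30.9%.

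Among the myelin genes, Cnp (17.3 CPM per kilobase), an enzyme of myelin cytoplasm, and Mbp (12.1), myelin basic protein, led. Mog, a protein of the outer myelin layer that appears late, was lowest at 0.452 and varied most. Its CPM was 1.45 in WT1, 0.10 in WT2, 0.198 in WT3, 0.443 in WT4, 1.11 in WT5, 0.568 in WT6 and 1.52 in WT7. Mobp, another late myelin protein, had a CPM of 15.3 in WT1, 1.5 in WT2, 2.23 in WT3, 6.59 in WT4, 8.51 in WT5, 7.43 in WT6 and 13.6 in WT7. For both genes WT2 and WT3 were lowest and WT1 and WT7 highest.

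**Figure D4:**
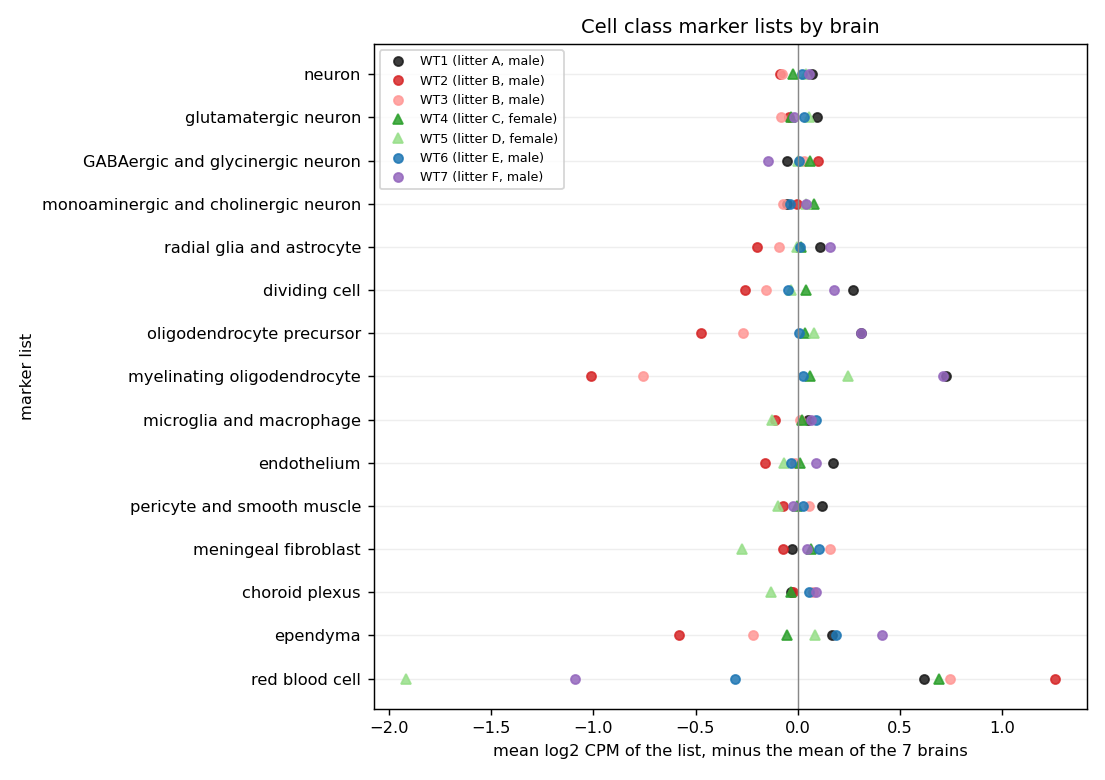
Mean log2 CPM of each cell class marker list in each WT brain, as the difference from the mean of the 7 brains; each point is 1 brain, circles are males and triangles are females. The neuron lists span at most 0.247 from lowest to highest brain, while the myelinating oligodendrocyte list spans 1.74 with WT2 and WT3 at the left and the red blood cell list spans 3.18 with WT5 at the left.

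Vessels, meninges and immune cells varied less. The 11 microglia and macrophage genes summed to between 197 CPM in WT2 and 229 CPM in WT1, and C1qa, a complement component, stood at 15.9 CPM per kilobase. Aif1, the Iba1 protein, was lowest at 1.37 on that scale. Pf4, a chemokine of border macrophages and platelets, varied most, from 3.01 CPM in WT5 to 6.26 CPM in WT2. The 9 endothelial genes summed to between 300 and 380 CPM, led by Cldn5 (38.4 CPM per kilobase), a tight junction protein, and Slco1c1 (12.5), the thyroxine transporter of brain vessels. Flt1 was lowest (2.07) and Cdh5, VE-cadherin, varied most, from 23.3 CPM in WT5 to 33.5 CPM in WT1. The 9 pericyte and smooth muscle genes summed to between 272 and 351 CPM, with Vtn (36.8 CPM per kilobase) and Rgs5 (30.6) highest and Myh11 (0.612) lowest, and Rgs5 most variable. Of these 9, 5 varied beyond counting error, against 74.8% of all genes and 60.2% of those between 1 and 10 CPM.

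The 11 genes of meningeal fibroblasts summed to between 442 CPM in WT5 and 647 CPM in WT3. Col3a1 (21.8 CPM per kilobase) and Col1a2 (11.7), fibrillar collagens, led, and Foxc1 (2.04), a transcription factor of the meninges, was lowest. Col1a1, the other chain of type I collagen, varied most. Its CPM was 74.5, 54.3, 81.2, 43.6, 36.3, 49.2 and 43.9 in WT1 to WT7. It was high in WT3 and WT1 and low in WT5. The 10 choroid plexus genes summed to between 860 CPM in WT5 and 1102 CPM in WT6, most of it Ttr, which ran from 699 CPM in WT5 to 918 CPM in WT6. Enpp2 (20.9 CPM per kilobase), autotaxin, came second and F5 (0.156) was lowest, and Kl, the klotho protein, varied most. Of the 7 genes of ciliated ependyma, Foxj1 (8.88 CPM per kilobase), the master regulator of motile cilia, and Dynlrb2 (6.44), a dynein light chain, led, Ak7 (0.978) was lowest, and Ccdc153 varied most, from 1.10 CPM in WT2 to 4.97 CPM in WT7.

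Marker genes of neighbouring tissues were mostly low, and several of them are also active in the brain. Of the 10 pituitary genes only Pomc was analysed here, at 0.909 CPM. Of the 10 retina and lens genes 3 were, among them Nrl (0.498 CPM) and Crx. The CPM of Crx, a transcription factor of photoreceptors and pineal cells, was 0.163 in WT1, 0.275 in WT2, 0.718 in WT3, 0.172 in WT4, 0.131 in WT5, 0.934 in WT6 and 0 in WT7, where a count of 0 allows up to 0.0522 CPM. Tph1 was highest in the same brains, WT6 and WT3. Lhx4, the other pineal gene, stayed between 0.980 and 1.73 CPM. Of 8 skin genes 4 were analysed. Krt10, a keratin of the upper epidermis, was 10.1 CPM in WT6 and between 3.36 and 4.13 CPM elsewhere, while Lor, loricrin, stayed between 1.97 and 3.18 CPM and Dsp (0.338 CPM per kilobase) was lowest.

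Genes of sensory and cranial ganglia, all 9 analysed, were led by Prph (5.09 CPM per kilobase), the filament of peripheral axons, and Isl1 (3.68), which is also active in the brain. Scn10a, the sodium channel of nociceptors, was lowest at 0.0467 and varied most. Of 9 skeletal muscle genes 6 were analysed, with Acta1 (3.58 CPM per kilobase) and Actn2 (1.13) highest, Myh8 (0.193) lowest and Myh3 most variable. Of 9 genes of cartilage and bone 7 were analysed, led by Sox9 (3.76), which astroglia also express, and Col2a1 (1.07), with Runx2 (0.0845) lowest and Sp7 most variable. The olfactory epithelium list was carried by Gnal (27.3 CPM per kilobase) and Adcy3 (8.36), which brain neurons also express. Omp, which marks olfactory receptor neurons, stood at 0.244 CPM per kilobase. Of 9 liver genes, only Ttr and Apoa1 (0.545 CPM per kilobase) were analysed here.

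Regional transcription factors of forebrain, midbrain, cerebellum and hindbrain were all measured, and the Hox genes stood apart in 1 brain. The 10 forebrain genes summed to between 117 CPM in WT7 and 160 CPM in WT2, led by Lhx2 (8.72 CPM per kilobase) and Tbr1 (6.55), with Six3 (0.391) lowest and Nkx2-1 most variable. The 10 midbrain and isthmus genes summed to between 47.6 CPM in WT1 and 69.3 CPM in WT2, led by Otx2 (3.66) and En2 (2.35), with Pax2 (0.144) lowest. Tal2 had the largest coefficient of variation of them, 24.0%, and did not vary beyond counting error (chi-square adjusted p = 0.316). The 11 cerebellum genes summed to between 396 and 458 CPM, led by Zic1 (32.9 CPM per kilobase), a transcription factor of granule cells, and Calb1 (14.7), a calcium buffer of Purkinje cells and many other neurons, with Pax2 lowest and Ptf1a most variable.

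The 15 analysed Hox genes, which in the nervous system mark the hindbrain and spinal cord, summed to 36.2 CPM in WT1, 49.3 in WT2, 43.7 in WT3, 47.7 in WT4, 39.6 in WT5, 37.6 in WT6 and 23.5 in WT7. WT7 was the lowest, and without it the coefficient of variation of the sum was 12.8% in place of 21.9%. Hoxa5 (6.05 CPM per kilobase) and Hoxb3 (1.47) led and Hoxa3 (0.140) was lowest. Hoxb8 varied most, with a CPM of 0.794, 0.851, 0.570, 1.45, 0.545, 1.52 and 0.0525 in WT1 to WT7. Hoxb7, among the 20 most variable genes, had a CPM of 1.38, 1.28, 0.966, 2.02, 0.698, 1.32 and 0.122, also lowest in WT7. Without WT7 the coefficient of variation was 44.9% in place of 62.9% for Hoxb8 and 34.9% in place of 53.7% for Hoxb7. In WT7, 3 counts make 0.0522 CPM, so that the values of both genes in that brain rest on few counts. Where the brain was severed from the spinal cord in each pup is not given in the sources used here.

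Of 13 hypothalamic peptide genes 10 were analysed, of which Pomc was lowest per length and Oxt, oxytocin, most variable, from 0.225 CPM in WT2 to 0.960 CPM in WT5. Immediate early genes, which neuronal activity induces within minutes, stayed low in all brains, and the 12 analysed summed to between 67.1 and 81.6 CPM. Btg2 (6.21 CPM per kilobase) and Ier2 (3.50) led and Fosb (0.0585) was lowest and most variable. The 13 genes of hypoxia and stress summed to between 346 and 403 CPM, led by Txnip (26.6 CPM per kilobase), a thioredoxin inhibitor, and Bnip3 (22.8), a mitophagy receptor. Adm (0.613) was lowest, and Hspa1a, an inducible heat shock protein, varied most, from 2.55 CPM in WT3 to 5.45 CPM in WT5. The 11 interferon response genes summed to between 24.3 CPM in WT5 and 34.5 CPM in WT2, led by Ifi27 (4.57 CPM per kilobase) and Bst2 (2.85). Oas1a (0.224) was lowest and Rsad2, viperin, varied most, with 0.371 CPM in WT5 and 3.80 CPM in WT2.

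Pairs of genes in which one member is used early in brain development and the other later were then compared within each brain per exon length, with an exact two-sided sign-flip test over the 7 brains. The smallest p this test can give is 0.0156, and all 11 pairs tested reached it, with the same value after Benjamini-Hochberg adjustment. A pair reaches it whenever all brains share a direction, and where equality lies depends on the annotated exon lengths. These p-values therefore speak only for a direction shared by the brains. WT2 and WT3 are littermates, and with the brains of a litter averaged (chosen after seeing the data) the smallest p over the 6 litters is 0.0312, which all 11 pairs reached as well. The 10 pairs reported here are described. In 7 of them the early gene was higher in 7 of 7 brains. Grin2b, the NMDA receptor subunit of young synapses, exceeded Grin2a 8.30-fold (log2 ratio 3.05 ± 0.199, SD). Glra2, the fetal glycine receptor subunit, exceeded Glra1 35.3-fold (5.14 ± 0.309). Scn3a, the embryonic sodium channel, exceeded Scn1a 3.63-fold (1.86 ± 0.240). Dcx exceeded Rbfox3 4.45-fold (2.15 ± 0.356), Fabp7 exceeded Aqp4, the water channel of astrocyte endfeet, 19.0-fold (4.25 ± 0.409), and Pdgfra exceeded Mog 52.8-fold (5.72 ± 1.30). Mog had a mean of only 0.770 CPM, so that the last fold value rests on few counts. Eno1, the enolase of dividing cells and glia, exceeded the neuronal Eno2 only 1.65-fold (0.72 ± 0.0624).

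In the other 3 pairs the late gene was already higher in 7 of 7 brains. Slc12a5, the KCC2 transporter that exports chloride and makes GABA inhibitory, exceeded Slc12a2, the NKCC1 transporter that imports it, 4.93-fold per length (log2 ratio of early to late −2.30 ± 0.181). Actl6b, the BAF complex subunit of postmitotic neurons, exceeded the progenitor subunit Actl6a 3.33-fold (−1.73 ± 0.111). Igf1 exceeded Igf2, a growth factor of the fetus that choroid plexus and meninges go on making, 2.83-fold (−1.5 ± 0.167). These are ratios in a mixture of cells, and fold values across genes depend on the annotated exon lengths.

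The early-to-late ratio was highest in WT2 for 7 of the 10 pairs and in WT3 for 2 more, so that a brain of litter B was highest in 9 of 10, and it was lowest in WT7 for 5. For Pdgfra over Mog the log2 ratio ran from 4.42 in WT7 to 7.82 in WT2. Many of these genes share cell types with one another and with the lists above, so that the pairs are not independent of each other.

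**Figure D5:**
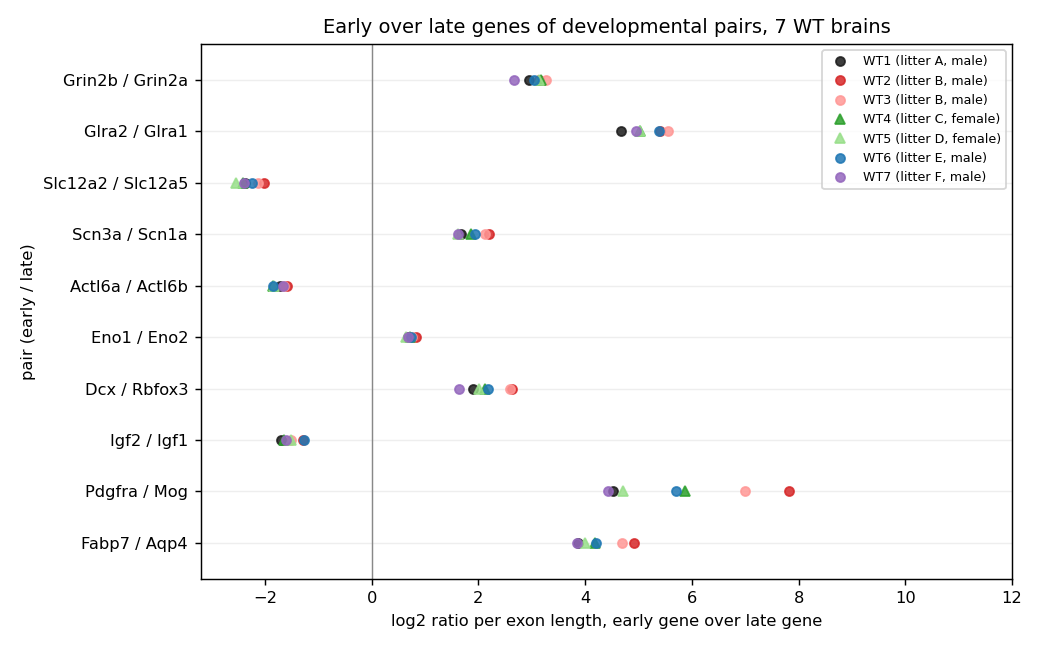
Log2 ratio of the early over the late gene of each developmental pair, per exon length, in each of the 7 WT brains; the vertical line marks equal levels, circles are males and triangles are females. The early gene is higher in 7 of the 10 pairs and the late gene in 3, and WT2 lies furthest right in 7.

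In a principal component analysis of log2 CPM over the 15212 genes of 1 CPM or more, the first component held 45.0% of the variance and set WT2 (27.7) and WT3 (19.7) apart from the other 5 brains, of which WT6 (−2.94) was nearest and WT7 (−16.2) farthest. The second held 24.7%, with both females at one end (17.6 for WT4 and 15.6 for WT5), and the third 11.3%. At the end of WT2 and WT3 the first component was led by the Y genes Ddx3y, Eif2s3y, Kdm5d and Uty, then by Slc4a1 and Hbb-bt, and at the other end by Xist, Gm15564, Lars2 and Mobp. With the 14653 autosomal genes alone, chosen after seeing the data, the first component held 53.7% and again had WT2 (26.6) and WT3 (18.1) at one end and WT7 (−18.7) at the other. Over all genes WT2 and WT3, the only littermates, had the smallest root mean square difference of the 21 pairs of brains, 0.190 on the log2 scale, against 0.203 to 0.388 for the 20 pairs of different litters. This did not hold with other measures. With autosomal genes the root mean square difference was 0.178 between WT4 and WT6 and 0.183 between WT5 and WT6, both under the 0.189 of WT2 and WT3, and by the median absolute difference over all genes the same 2 pairs of brains (0.0825 and 0.0776) were also closer than WT2 and WT3 (0.0840). WT2 and WT7 were the most distant, and 351 genes differed between them by more than 2-fold. For 25.8% of the genes WT2 was the highest brain and for 27.1% the lowest. The median coefficient of variation of a gene between brains was 8.13% with all 7 brains and 6.19% without WT2 and WT3. With 1 litter of 2 pups and 5 of 1, litter cannot be told apart from the single pup.

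Very few genes were called different between female and male brains, and with only 2 females small differences could be missed. With 17927 genes tested together by the quasi-likelihood method of edgeR, 7 were called (adjusted p under 0.05), which is 0.039% of those tested, with 1 higher in the 2 females (0.00558%) and 6 higher in the 5 males (0.0335%). Xist, the RNA that silences 1 of the 2 X chromosomes of females, had a CPM of 149 in WT4 and 170 in WT5 and between 0.0700 and 0.401 in the males (log2 difference 9.65, edgeR adjusted p = 2.18e-08). Ddx3y, an RNA helicase, had 0 counts in both females and between 83.8 and 96.2 CPM in the males. Set against a floor of 3 counts per library, it was at least 1220-fold higher in males. By the same bound Eif2s3y, a translation factor subunit, was at least 631-fold higher, the histone demethylases Kdm5d and Uty at least 505-fold and 475-fold, and the weak genes Gm29650 and Uba1y at least 13.2-fold and 6.53-fold. The edgeR adjusted p-values of these genes ran from 2.18e-08 for Ddx3y to 0.0219 for Uba1y. In 7 of 7 brains these genes went with the sex named in the column.

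Of the X-linked partners of these genes, Eif2s3x, Kdm5c and Kdm6a, known to escape silencing in mice, lay higher in both females without overlap but did not pass the adjusted threshold. Over all 17927 genes both females lay above every male for 3.81% and below every male for 3.16%. Eif2s3x was 135.5 and 130.03 CPM in the females and 87.2 to 103 CPM in the males (1.38-fold, edgeR adjusted p = 0.194). Kdm5c was 121 and 115 CPM against 88.9 to 96.0 CPM (1.27-fold, edgeR adjusted p = 0.220), and Kdm6a 52.6 and 53.1 CPM against 39.2 to 45.8 CPM (1.27-fold, edgeR adjusted p = 0.999992). DESeq2 called all 3. 5530601H04Rik was 1.21-fold higher in females. The sexes overlapped for Pbdc1 and Ddx3x. Over 527 X-linked genes of 1 CPM or more the median log2 difference between females and males was −0.0043, and over 14653 autosomal genes −0.00029. With 2 females, each from its own litter, sex cannot be told apart from litters C and D.

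Capn15, the gene that gives the mouse line its name, encodes a calpain with zinc fingers that bind ubiquitin (GRCm38, chromosome 17, 25958364 to 25985796, minus strand). Its mRNA was of middling level, 4.44 CPM per kilobase. This lay above the median of all genes (4.09) and under that of the 15212 genes with a mean of 1 CPM or more (5.62). Its CPM was 26.4 in WT1, 27.4 in WT2, 27.4 in WT3, 27.1 in WT4, 26.3 in WT5, 24.9 in WT6 and 18.8 in WT7. WT7 lay below the other brains, and without WT7 the coefficient of variation between brains was 3.63% in place of 12.1%. All 7 libraries carry the WT label, and WT7 is kept as labelled throughout. Without WT7 the median coefficient of variation over all genes was 7.86%.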

How the data were processed

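RNA-SEQ counts of 7 WT brains at P2 were used. The deposited values are raw counts of reads on each gene, which the authors made by trimming, alignment to GRCm38 and counting. The labels and the paper name different library kits and counting tools, and the strand setting of the counting is not given in the sources used here. All libraries carry 1 batch label. The paper states that several samples shared a sequencing lane and does not say which, so that lane was not tested. No column of unknown sample was left out. Litter and sex came from column names. Of 17927 genes, 17915 had their identifier in GENCODE M21, the source of positions and exon lengths used here.

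In R 4.3.3, edgeR 4.0.16 gave TMM factors (0.992 to 1.01), CPM, log2 CPM (prior count 2), BCV and the quasi-likelihood test of sex, with limma 3.58.1 and DESeq2 1.42.0 as alternatives. Spread beyond counting error was tested by chi-square against Poisson counts. Pairs were compared on counts plus 0.5 by exact sign flips. The quasi-likelihood test, the chi-square test and the BCV estimate were tested on simulated data. Adjusted p-values are Benjamini-Hochberg. No library was a copy of another, since the chi-square between the most similar libraries, divided by the number of genes, was 5.72. Floors of 3 counts cover counting error only. Python 3.11.15 was used for summaries.

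The genes named were Capn15, the 20 nuclear protein coding genes of highest level per length, all mitochondrial protein coding genes, the first 3 genes by CPM of each biotype with 20 or more genes, the 20 largest BCV (1 CPM or more) and 10 smallest (10 CPM or more), the sex calls, both genes of each pair, and from every list the 2 highest per length, the lowest and the most variable. Lists held 373 entries, of which 320 were analysed. Members and lists were chosen with earlier results of these data known. Near-identical and overlapping genes are uncertain. For the spread and levels, other scalings, filters and left-out brains were tried. A few genes that this rule names, and 1 of the 11 pairs, are not reported here.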

Additional observations from a re-analysis of the deposited data

Results flagged for a closer look

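Across 108 sets of 7 values tested with Dixon's rule, 10 held a brain whose gap to the nearest other brain was over 0.568 of the whole range. Chance would give about 5.4 for independent sets that were not chosen by their values. Some of these sets were chosen for a large spread and some share members, so that the 2 numbers cannot be compared. WT7 stood apart in 5. Capn15 was lowest in WT7 at 4.23 log2 CPM, with the next brain at 4.64. The hindbrain Hox list was lowest there at a mean of −0.0332 log2 CPM (next 0.867), Hoxb7 at −2.58 (next −0.43) and Stmn1 at 9.66 (next 9.89), while mt-Nd6 was highest at 4.52 (next 3.91). WT6 stood apart in 4. The mitochondrial protein coding list was lowest in WT6 at a mean of 4.70 log2 CPM (next 4.96), as were its members mt-Co1 at 11.8 (next 12.1) and mt-Co3 at 2.7 (next 2.95), and the skin epithelium list was highest at 1.92 (next 1.44). Ttr was lowest in WT5 at 9.45 log2 CPM (next 9.68). Sets that share members, such as the Hox list and Hoxb7, are not independent.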

How the results depend on the processing

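The number of sex calls was 7 with limma-voom, RLE factors, no TMM factors and a filter on low counts, 5 with a mean of at least 1 CPM, and 12 with DESeq2, which added Eif2s3x, Kdm5c, Kdm6a, Nrbp2 and Ahnak. At an unadjusted p under 0.05 there were 338 genes. Leaving out any 1 brain gave 6 calls, and the gene lost each time was Uba1y. With 1 female left, that female is assumed to vary like the males. The genes that varied beyond counting error numbered between 12251 (without WT2) and 13100 when 1 brain was left out. The median BCV was 7.36% for genes with a mean of 10 CPM or more and 6.88% by a moment estimate, and between 7.79% (without WT2) and 9.24% (without WT6) when 1 brain was left out. The protein coding share was 96.1% without mitochondrial genes and 97.7% without the 10 genes of the most counts, and stayed between 94.5% and 94.7% when 1 brain was left out. Counted per exon length, 329 genes held 50% of the total. The number stayed between 1246 and 1249 when 1 brain was left out, and all 11 pairs kept their direction and their call under each alternative. Values without litter B and values without WT7 in the text were chosen after seeing the data. Of the coefficients of variation of the most variable genes recomputed without 1 brain, 138 were counted as unchanged and 2 as moved, those of Hoxb7 and Gm24601 without WT7. Smaller changes were counted as unchanged. That of Tph1 fell from 73.0% to 51.9% without WT6, and that of Xist rose from 171% to as much as 243%. No paired analysis was possible because only WT libraries enter and the replicate numbers would pair them with libraries of the other genotype. What depth limits are genes under 1 CPM, where counting error is near 20%.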
